A study of Mus musculus with 6 samples.

Results

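Estrogen receptor alpha (ERα) binding was examined around Ltf, Muc1, Lcn2 and C3, genes that the uterine epithelium is known to express and, in the case of Ltf, Lcn2 and C3, to secrete. Members were the called ERα peaks whose midpoint lay in 1 of 4 fixed windows of build mm9, each a gene with about 100 kb on either side. They numbered 67 of the 154923 peaks in the 6 lists, and merging peaks that overlapped by at least 1 bp gave 35 of 65146 regions. The windows were chr9:110821000-111046000 for Ltf, chr3:88932000-89138000 for Muc1, chr2:32140000-32344000 for Lcn2 and chr17:57243000-57468000 for C3. Within each, the stretch left after removing 100 kb from both ends is called the gene interval below. It marks the gene approximately, and so do the distances to it.

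The data were ChIP-seq peak lists from whole uteri of ovariectomized C57BL/6J females aged 12 weeks. The mice were wild type or carried ERα with a mutated activation function 2 (AF-2, line AF2ERKI), and wild-type animals were littermates. Within each genotype 1 group received fulvestrant (ICI182780, ICI) at 2 mg/kg, 1 received tamoxifen at 2 mg/kg and 1 received 50 µl of DMSO as vehicle, all by intraperitoneal injection, and uteri were taken after 1 h. Removal of the ovaries was shared by all 6 groups, and the sample titles carry a code, E1h, that no label explains. It may stand for the time after injection or for an added estrogen, which the labels do not settle, and with an added estrogen the vehicle group would not be free of hormone. Uteri of 6 mice were pooled into 1 library per group, so no replicate spread exists and no test was made. The intervals given are 95% intervals that cover counting error alone, and read depth is unknown. Whole tissue was used, so binding in epithelium and in other uterine cells cannot be told apart.

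ERα is a ligand-activated transcription factor that binds estrogen response elements, pairs of GGTCA motifs arranged as a palindrome, often far from gene starts. AF-2 is the surface in its ligand-binding domain that recruits coactivators once an agonist is bound. Ltf encodes lactoferrin, an iron-binding glycoprotein of uterine secretions and a classic estrogen-induced gene of the mouse uterus. Muc1 encodes a transmembrane mucin on the apical surface of the epithelium. Lcn2 encodes lipocalin 2, which binds iron-carrying siderophores, and C3 encodes the central component of complement. ICI is a steroid derivative that acts as an antagonist and promotes loss of the receptor, whereas tamoxifen is a nonsteroidal triphenylethylene with mixed activity.

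Near the 5′ edge of the gene interval, ERα was called for C3 in all 4 ligand libraries and for Ltf in both mutant ones. No mm9 gene start was available, so that edge marks the beginning of each gene approximately. The promoters of these genes are shown because a called region lay near that edge. Both are 300 bases long, 250 before and 50 after the gene's start, on the strand of the gene, from RefSeq build GRCm38.p6. Their coordinates belong to that build and are not comparable with the mm9 positions given elsewhere. All 4 genes matched the promoter table by symbol. Capitals mark GGTCA, or TGACC where the motif lies on the opposite strand.
Ltf promoter, chr9:111019042-111019341 (+): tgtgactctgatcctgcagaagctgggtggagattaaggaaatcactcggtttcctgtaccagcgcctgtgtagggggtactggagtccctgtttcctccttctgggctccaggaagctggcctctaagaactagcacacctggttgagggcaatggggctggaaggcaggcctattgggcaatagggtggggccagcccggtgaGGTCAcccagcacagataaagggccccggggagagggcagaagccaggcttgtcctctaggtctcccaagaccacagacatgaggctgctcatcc
C3 promoter, chr17:57228087-57228386 (-): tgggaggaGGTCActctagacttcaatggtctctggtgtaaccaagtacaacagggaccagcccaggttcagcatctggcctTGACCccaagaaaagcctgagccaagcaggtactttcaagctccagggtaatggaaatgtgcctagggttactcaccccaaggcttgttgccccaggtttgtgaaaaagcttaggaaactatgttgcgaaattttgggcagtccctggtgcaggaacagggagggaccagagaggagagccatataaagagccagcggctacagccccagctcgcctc

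The Ltf promoter held 1 GGTCA motif, which began 45 bases before the gene's start. The C3 promoter held 2, which began 242 and 168 bases before the start, the latter on the opposite strand. On either strand, GGTCA was present in 13299 of 32851 promoters of this length (40.5%), so its presence does not set these genes apart. The longer form AGGTCA, which contains GGTCA, occurred in the Ltf and C3 promoters and in 16.3% of all promoters. The Muc1 and Lcn2 promoters held neither form. The full palindromic response element, which is GGTCA and TGACC with 3 bases of any kind between them, was found in 23 promoters (0.0700%). None of the 4 genes had it in these bases. Whether the mm9 peaks cover these motifs was not tested, since the sequence of the peaks themselves was not used here.

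The Ltf window held 10 regions and the most peaks of any window, 22. Wild-type peaks numbered 1 with vehicle, 3 with ICI and 4 with tamoxifen, and mutant peaks 1, 9 and 4 in the same order. Mutant ICI thus had the highest number, and the other ligand libraries differed by 1 peak. The 95% Poisson intervals were 4.12 to 17.1 for mutant ICI and 0.619 to 8.77 for wild-type ICI, and they overlapped. Among 9582 windows of 200 kb with a region of any list, 21.6% held at least as many mutant ICI peaks as the 8 per 200 kb found here.

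Near the 5′ edge of the Ltf interval, both mutant ligand libraries had an ERα peak and the wild-type lists had none. This region, chr9:110921355-110921574, was centred about 0.46 kb inside the 5′ edge of the gene interval. The mutant ICI peak was chr9:110921355-110921554 and the mutant tamoxifen peak chr9:110921375-110921574, with midpoints 20 bp apart. Mutant tamoxifen had a further peak 0.930 kb upstream of the interval, chr9:110919871-110920070, which no other list shared. Absence from a wild-type list means no peak passed the authors' threshold there and does not show that the receptor was absent. The nearest wild-type peak was a tamoxifen peak 7.65 kb upstream, in a region held with mutant ICI (chr9:110913143-110913350). The nearest wild-type ICI peak lay 13.4 kb beyond the 3′ edge of the interval, again in a region shared with mutant ICI (chr9:110959367-110959650).

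The most widely called sites of the Ltf window were distant from the gene. The region chr9:111020420-111020763, 74.4 kb downstream of the interval, was the sole member held by all 6 lists, and 0.705% of all regions were. Its 6 peak midpoints were spread over 144 bp, against a median of 66 bp in the 459 regions held by all lists. A region 64.3 kb upstream, chr9:110856418-110856676, was held by all 4 ligand lists and by neither vehicle list. Mutant ICI had a further peak 166 bp beside it that no other list held. Of the 10 regions, 5 were held by ligand lists of both genotypes (exact binomial interval 18.7 to 81.3%; all regions 49.3%), 5 by mutant ligand lists alone (18.7 to 81.3%; all regions 29.0%) and 0 by wild-type ligand lists alone (0 to 30.8%; all regions 19.2%). These intervals include the shares of all regions. In RefSeq order (GRCm38.p6), the protein-coding neighbours of Ltf are Rtp3 and Ccrl2, and regions in the window were not assigned to one gene or another.

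**Figure D1:**
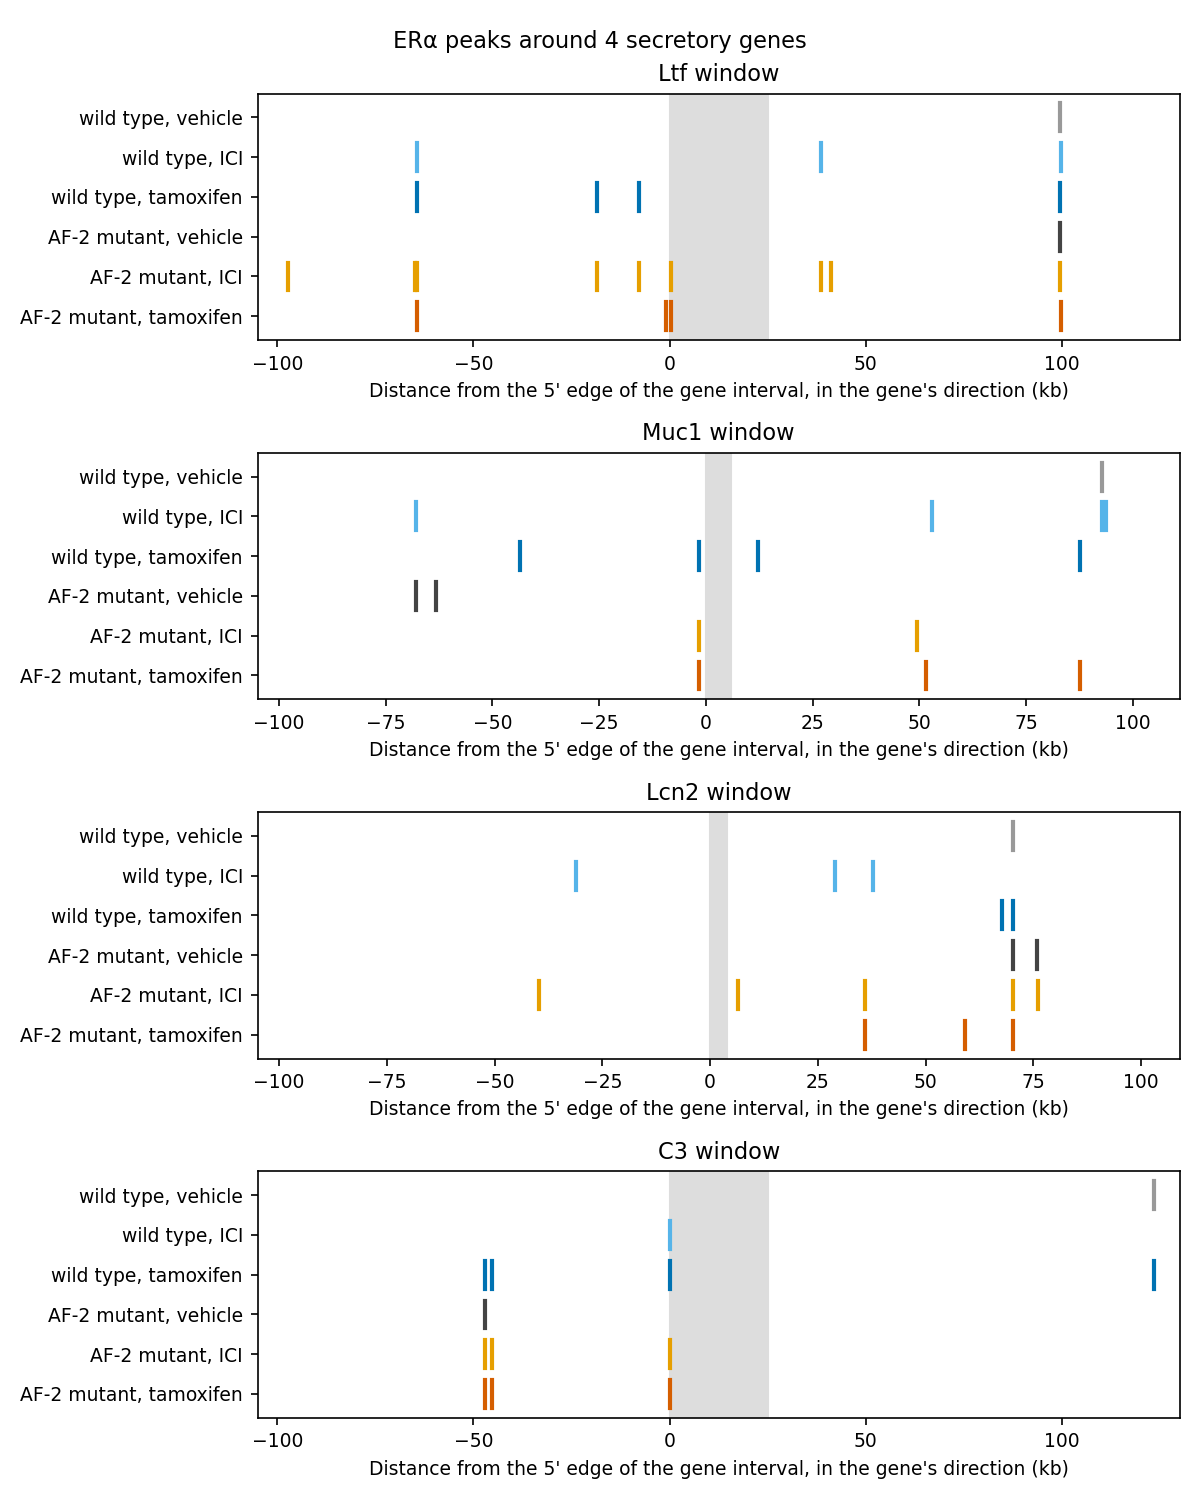
Called ERα peaks in the 4 windows, 1 row per library, against distance in kb from the 5′ edge of the gene interval in the direction of the gene; the grey band is the gene interval and each vertical mark is 1 peak. Peaks near the 5′ edge of the gene interval are seen for C3 in all 4 ligand libraries and for Ltf in both mutant ones. Vehicle peaks lie far from the genes.

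The C3 window was the sparsest, with 4 regions and 13 peaks. Wild-type vehicle, ICI and tamoxifen had 1, 1 and 4 peaks, and the mutant had 1, 3 and 3. Wild-type ICI was thus the lowest ligand library and the other ligand libraries differed by at most 1 peak. The Poisson intervals overlapped, at 0.0253 to 5.57 for wild-type ICI and 1.09 to 10.2 for wild-type tamoxifen. Each of the 4 regions was held by at least 2 lists. Regions of 1 list thus numbered 0 of 4 (exact binomial interval 0 to 60.2%), which includes the 35.6% of all regions.

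Near the 5′ edge of the C3 interval, all 4 ligand libraries had a peak and both vehicle libraries had none. The region, chr17:57367710-57367929, was centred about 0.18 kb inside the 5′ edge of the gene interval. Its 4 midpoints fell within 20 bp, against a median spread of 30 bp in the 13144 regions held by 4 lists. This was the one peak of wild-type ICI in the window. It was also the one region in or within 10 kb of any of the 4 gene intervals that wild-type ICI held.

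A pair of sites upstream of C3 was called in every ligand library except wild-type ICI. They lay 45.2 kb and 47.0 kb from the interval, at chr17:57413240-57413463 and chr17:57414989-57415191, and were 1525 bp apart. Regions of this kind were 2 of 4 in the window (50%, exact binomial interval 6.76 to 93.2), which includes the 11.7% of all regions. The pair was described after its values were seen, as the nearer site was not among those named by rule. Mutant vehicle also had a peak at the farther site, where the 4 midpoints fell within 3 bp. The last region of the window, chr17:57244510-57244718, lay 98.3 kb downstream and was called with vehicle and tamoxifen in the wild type alone. It was 1.61 kb inside the window's edge, so a slightly smaller window would lose it. The gene neighbours of C3 in RefSeq order are Tnfsf14 and Trip10.

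Around Muc1, the nearest ERα site lay just upstream of the gene interval and was missing from wild-type ICI. The region, chr3:89030283-89030507, was 1.49 kb upstream of the interval and was held by wild-type tamoxifen, mutant ICI and mutant tamoxifen, with midpoints within 25 bp. No region lay in the gene interval itself. The window held 11 regions and 16 peaks. In the wild type, vehicle had 1, ICI 4 and tamoxifen 4 peaks, and in the mutant vehicle had 2, ICI 2 and tamoxifen 3. The mutant ICI number (Poisson interval 0.242 to 7.22) was the lowest of the ligand libraries by 1 peak, and their intervals overlapped. Its whole list was the longest. Per 10000 peaks of the list, mutant ICI had 0.436 (0.0528 to 1.58) and wild-type ICI 1.51 (0.412 to 3.87), which overlapped too.

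Of the 11 Muc1 regions, 7 were held by 1 list (63.6%, exact binomial interval 30.8 to 89.1; all regions 35.6%) and 0 by all 4 ligand lists (0 to 28.5; all regions 23.2%). Both intervals include the share of all regions. Wild-type ligand lists alone held 6 of the 11 (54.5%, 23.4 to 83.3), and this interval lay above the 19.2% of all regions. Wild-type tamoxifen alone had a peak 6.15 kb beyond the 3′ edge of the interval, chr3:89044151-89044350. A run of 3 neighbouring regions lay between 43.3 and 46.9 kb downstream of the interval. Each was held by 1 library alone, mutant ICI, mutant tamoxifen and wild-type ICI in order of distance. The same lists alone held 12.5%, 5.06% and 6.28% of all regions. Tamoxifen in both genotypes gave a peak at exactly the same position, chr3:89119510-89119709, which the ICI lists lacked. The tamoxifen lists of both genotypes and no other list held 0.967% of all regions. This tamoxifen site, like the 3 before it, was picked out after its values were seen.

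The vehicle peaks of the genotypes did not overlap in the Muc1 window, as for most vehicle peaks: in the whole lists 29.4% of wild-type and 21.7% of mutant vehicle peaks met one of the other genotype. The wild-type vehicle peak lay in chr3:89124605-89124882, 86.6 kb downstream, with a wild-type ICI peak. A mutant vehicle peak in chr3:88963983-88964233, 67.8 kb upstream, also overlapped a wild-type ICI peak and no mutant ligand peak. The other mutant vehicle peak, chr3:88968608-88968807, was 63.2 kb upstream and was the one region of all 35 held by no ligand list. Over all regions 2.45% were of that kind. Thbs3 and Trim46 adjoin Muc1 in RefSeq order.

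Lcn2 had no called site in its gene interval, and 1 within 10 kb of it. This was a mutant ICI peak, chr2:32237492-32237691, 2.31 kb beyond the 3′ edge of the interval, in no other list. The Lcn2 window held 10 regions and 16 peaks, with 1, 3 and 2 wild-type peaks for vehicle, ICI and tamoxifen and 2, 5 and 3 mutant peaks. ICI gave more peaks than tamoxifen in both genotypes here, by 1 and 2 peaks, with overlapping Poisson intervals. They were 0.619 to 8.77 and 0.242 to 7.22 in the wild type, and 1.62 to 11.7 and 0.619 to 8.77 in the mutant.

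Wild-type ICI and the other libraries had no site in common around Lcn2. Its 3 peaks, 24.9 to 33.8 kb from the interval, were each in no other list. The most shared site, chr2:32173561-32173810, lay 66.2 kb downstream of the interval and was held by both vehicle lists and every ligand list except wild-type ICI. Vehicle peaks of both genotypes were found in 2 of the 35 regions, this one and the distal Ltf region, against 1.68% of all regions. A further mutant vehicle peak, in chr2:32167854-32168138, was 71.9 kb downstream and overlapped a mutant ICI peak. The mutant ligand lists, without a wild-type list, shared chr2:32207935-32208196, 31.8 kb downstream. Of the 10 regions, 7 were held by 1 list (70%, 34.8 to 93.3), and the interval includes the 35.6% of all regions. The adjoining genes are 1110008P14Rik and Ptges2.

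**Figure D2:**
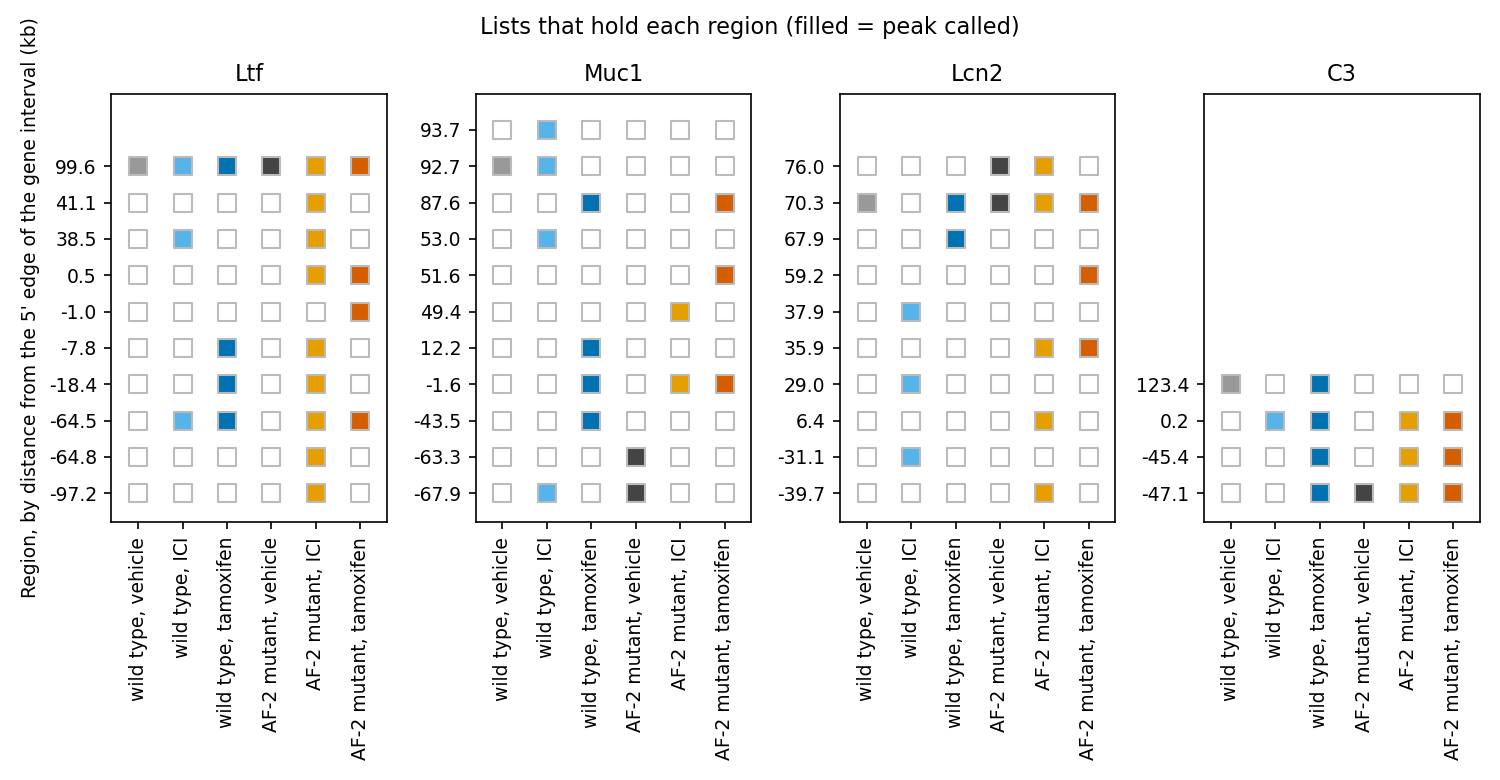
Each row is 1 of the 35 regions, ordered by its distance in kb from the 5′ edge of the gene interval (negative values are upstream), and each column is a library; a filled square means that a peak was called. Filled rows are most complete at C3, whereas 7 of 11 Muc1 rows and 7 of 10 Lcn2 rows have 1 filled square. Over all regions 35.6% were held by 1 list, within the exact interval of each window.

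Across the 4 windows, ligand libraries had more peaks than vehicle libraries, at ratios below those of the whole lists. Wild-type vehicle had 4 peaks (Poisson interval 1.09 to 10.2), wild-type ICI 11 (5.49 to 19.7) and wild-type tamoxifen 14 (7.65 to 23.5). Mutant vehicle had 6 (2.20 to 13.1), mutant ICI 19 (11.4 to 29.7) and mutant tamoxifen 13 (6.92 to 22.2). The ratio of ICI to vehicle peaks in the wild type was 2.75 (0.815 to 11.8), where that of the whole lists was 7.13. For tamoxifen it was 3.50 (1.10 to 14.6), against 10.1 for the whole lists. In the mutant the ratios were 3.17 for ICI (1.22 to 9.69) against 9.12, and 2.17 for tamoxifen (0.768 to 6.95) against 7.27. The whole-list ratio lay outside the counting interval for tamoxifen in the mutant and inside it for the other 3. Within 50 kb of the gene intervals, wild-type vehicle had 0 peaks, wild-type ICI 6 and wild-type tamoxifen 8, and mutant vehicle had 1, mutant ICI 13 and mutant tamoxifen 8. The mutant ratios to vehicle there, 13 for ICI (1.95 to 552) and 8 for tamoxifen (1.07 to 355), were above those of the whole lists and rest on 1 vehicle peak. Their intervals include the ratios of the full windows. Of the 10 vehicle peaks, 9 lay more than 50 kb from a gene interval, and where the lower ratios arise was not tested.

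As a share of each list, the windows took 10.8 of every 10000 peaks in the wild-type vehicle list (2.94 to 27.6) and 11.9 in the mutant one (4.38 to 26.0). The ligand lists ranged from 3.56 for mutant tamoxifen (1.89 to 6.08) to 4.15 for wild-type ICI (2.07 to 7.43) and mutant ICI (2.50 to 6.47). Wild-type tamoxifen had 3.75 (2.05 to 6.29). All intervals overlapped. The vehicle shares rest on 10 peaks, of which 9 lay more than 50 kb from a gene interval and 9 were in a region with a ligand peak. The stretch beyond 50 kb was also the largest, 400 kb against 320 kb from 10 to 50 kb. In the whole series, 7643 regions held a vehicle peak and 1598 of them held no ligand peak.

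**Figure D3:**
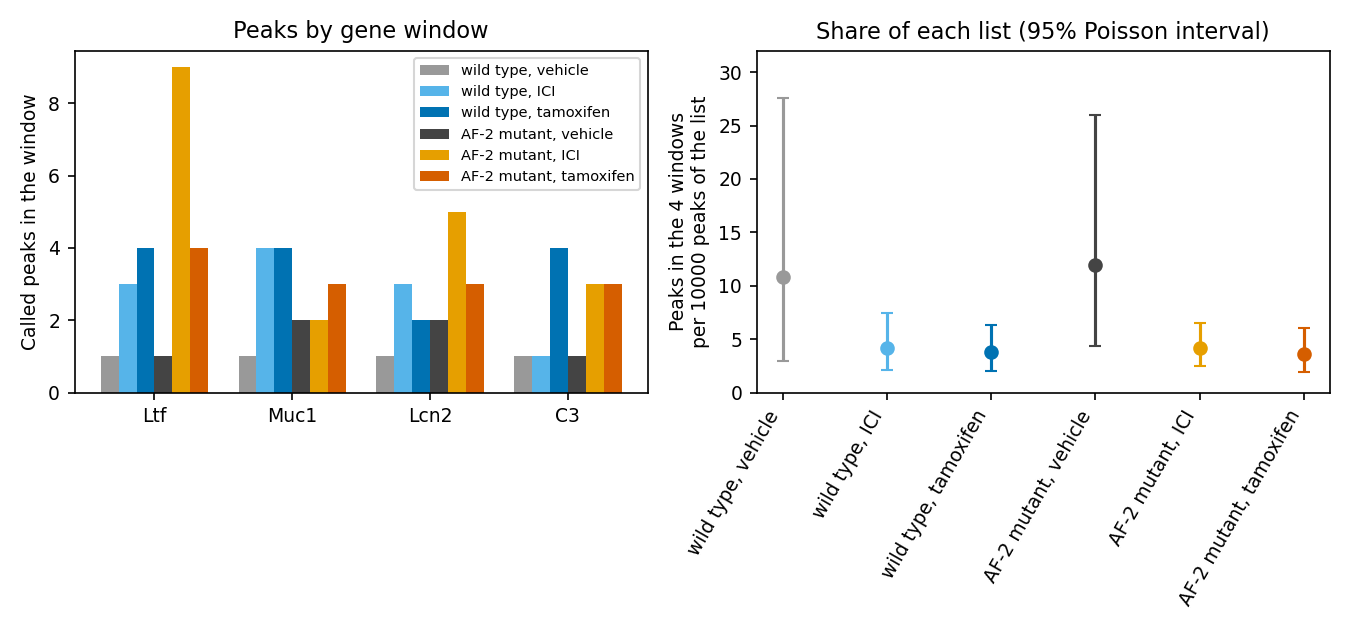
The left panel gives called peaks per gene window and library; the right panel gives peaks in the 4 windows per 10000 peaks of the library's list, with 95% Poisson intervals for counting error. Mutant ICI stands highest at Ltf with 9 peaks, and on the right the intervals of all 6 libraries overlap.

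ICI and tamoxifen were compared at the same dose and time in 2 pairs, 1 per genotype. Around these genes ICI gave fewer peaks than tamoxifen in wild-type uterus (ratio 0.786, 0.323 to 1.86) and more in mutant uterus (ratio 1.46, 0.685 to 3.22). Both intervals include equal numbers, and their width shows neither a difference nor likeness of the ligands. The whole lists gave 0.709 and 1.25, within these intervals. The ratio of mutant to wild-type peaks was 1.73 under ICI (0.781 to 4.02), 0.929 under tamoxifen (0.402 to 2.13) and 1.50 under vehicle (0.356 to 7.23). The corresponding whole-list ratios were 1.73, 0.979 and 1.35. Under ICI the ratio around the genes was that of the whole lists. Without the Ltf window it was 1.25 (0.444 to 3.64) and without the Muc1 window 2.43 (0.957 to 6.93), both within the counting interval.

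Close to the genes, the order of the libraries was near to that over all regions. Of the 7 regions in or within 10 kb of a gene interval, mutant ICI held 5 (all regions 70.3%), mutant tamoxifen 4 (56.1%), wild-type tamoxifen 4 (57.3%) and wild-type ICI 1 (40.7%). Wild-type and mutant vehicle held 0 (5.70% and 7.72% of all regions). Regions numbered 2 in the 60 kb of gene intervals, or 3.33 per 100 kb (0.404 to 12.0), and 5 in the 80 kb next to them, or 6.25 per 100 kb (2.03 to 14.6). From 10 to 50 kb there were 14 regions (4.38 per 100 kb, 2.39 to 7.34), and beyond 50 kb a further 14 (3.50 per 100 kb, 1.91 to 5.87). The intervals of these densities all overlapped. Upstream of the 5′ edge lay 14 regions and downstream of it 21, but the downstream side is longer by the 60 kb of gene intervals.

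The 35 regions were compared with all regions by the lists that held them. Of the 35 regions, 3 were held by all 4 ligand lists (8.57%, exact binomial interval 1.80 to 23.1), against 23.2% of all regions. Regions held by a single list numbered 18 (51.4%, 34.0 to 68.6), against 35.6%. Mutant ICI alone held 6 of these, wild-type ICI 5, wild-type tamoxifen 3, mutant tamoxifen 3 and mutant vehicle 1. The same lists alone held 12.5%, 6.28%, 9.44%, 5.06% and 1.84% of all regions. Every ligand list except wild-type ICI shared 4 regions (11.4%, 3.20 to 26.7), a share near the 11.7% of all regions. Regions with a vehicle peak numbered 8 (22.9%, 10.4 to 40.1) against 11.7%. The interval for all 4 ligand lists ended just below the value of all regions, and the other 3 intervals included it. With about 50 kb on each side it included 23.2% as well (0.120 to 23.8), and likewise without the Muc1 window (2.66 to 32.4) or the Lcn2 window (2.55 to 31.2). Without the Ltf window (0.101 to 20.4) or the C3 window (0.791 to 21.4) it ended below 23.2%. With peaks merged within 500 bp it also ended below (1.86 to 23.7; all regions 25.8%). With merging at 100 bp overlap it included the share of all regions (1.80 to 23.1; all regions 22.2%).

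By genotype, the windows had different counts, and within each pattern their intervals overlapped. Ligand lists of both genotypes held 11 regions (31.4%, 16.9 to 49.3; all regions 49.3%), mutant ligand lists alone 12 (34.3%, 19.1 to 52.2; all regions 29.0%) and wild-type ligand lists alone 11 (31.4%, 16.9 to 49.3; all regions 19.2%). For both genotypes the interval ended at about the share of all regions. Among regions with a ligand peak that number was 11 of 34 (32.4%, 17.4 to 50.5). This interval ended just below the 50.6% of all such regions. The intervals for the mutant alone and the wild type alone included their shares of all regions. Regions of the wild type alone were 6 of 11 at Muc1 (23.4 to 83.3%) and 4 of 10 at Lcn2 (12.2 to 73.8%). They were 1 of 4 at C3 (0.631 to 80.6%) and 0 of 10 at Ltf (0 to 30.8%). The Muc1 interval lay above the 19.2% of all regions, and the others included it. Those of the mutant alone were 5 of 10 at Ltf and 5 of 10 at Lcn2 (each 18.7 to 81.3%). They were 2 of 11 at Muc1 (2.28 to 51.8%) and 0 of 4 at C3 (0 to 60.2%). Each of these intervals included the 29.0% of all regions. Ligand lists of both genotypes held 1 of 10 regions at Lcn2 (0.253 to 44.5%), below the 49.3% of all regions. The other windows had intervals that included 49.3%. Both mutant ligand lists without a wild-type ligand list held 2 regions (5.71%, 0.700 to 19.2; all regions 10.6%). They were the region near the 5′ edge of the Ltf interval and the Lcn2 site described above. Both wild-type ligand lists without a mutant one held 0 of 35 regions (exact interval 0 to 10%), and 3.03% of all regions were of this kind.

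The list that overlapped least with the others around these genes was wild-type ICI. Of its 11 peaks, 3 overlapped a wild-type tamoxifen peak (27.3%, 6.02 to 61.0), where 72.1% of its whole list did. With mutant ICI 4 of 11 overlapped (36.4%, 10.9 to 69.2; whole list 72.8%), and with mutant tamoxifen 3 of 11 (27.3%, 6.02 to 61.0; whole list 66.5%). These 3 whole-list shares lay above the counting intervals, as did that of wild-type tamoxifen peaks met by wild-type ICI. In the opposite direction, wild-type ICI peaks were met by 3 of 14 wild-type tamoxifen peaks (21.4%, 4.66 to 50.8; whole list 51.2%), 4 of 19 mutant ICI peaks (21.1%, 6.05 to 45.6; whole list 42.0%) and 3 of 13 mutant tamoxifen peaks (23.1%, 5.04 to 53.8; whole list 48.2%). The 11 peaks include the 3 isolated ones at Lcn2 and 2 at Muc1.

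Wild-type tamoxifen and the mutant libraries overlapped each other at shares nearer to those of the whole lists. Of 14 wild-type tamoxifen peaks, 9 met a mutant ICI peak (64.3%, 35.1 to 87.2; whole list 74.6%) and 8 a mutant tamoxifen peak (57.1%, 28.9 to 82.3; whole list 64.1%). Of 13 mutant tamoxifen peaks, 8 met a wild-type tamoxifen peak (61.5%, 31.6 to 86.1; whole list 65.4%) and 9 a mutant ICI peak (69.2%, 38.6 to 90.9; whole list 85.6%). Of 19 mutant ICI peaks, 9 met a wild-type tamoxifen peak and 9 a mutant tamoxifen peak (each 47.4%, 24.4 to 71.1; whole list 60.7% and 68.2%).

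**Figure D4:**
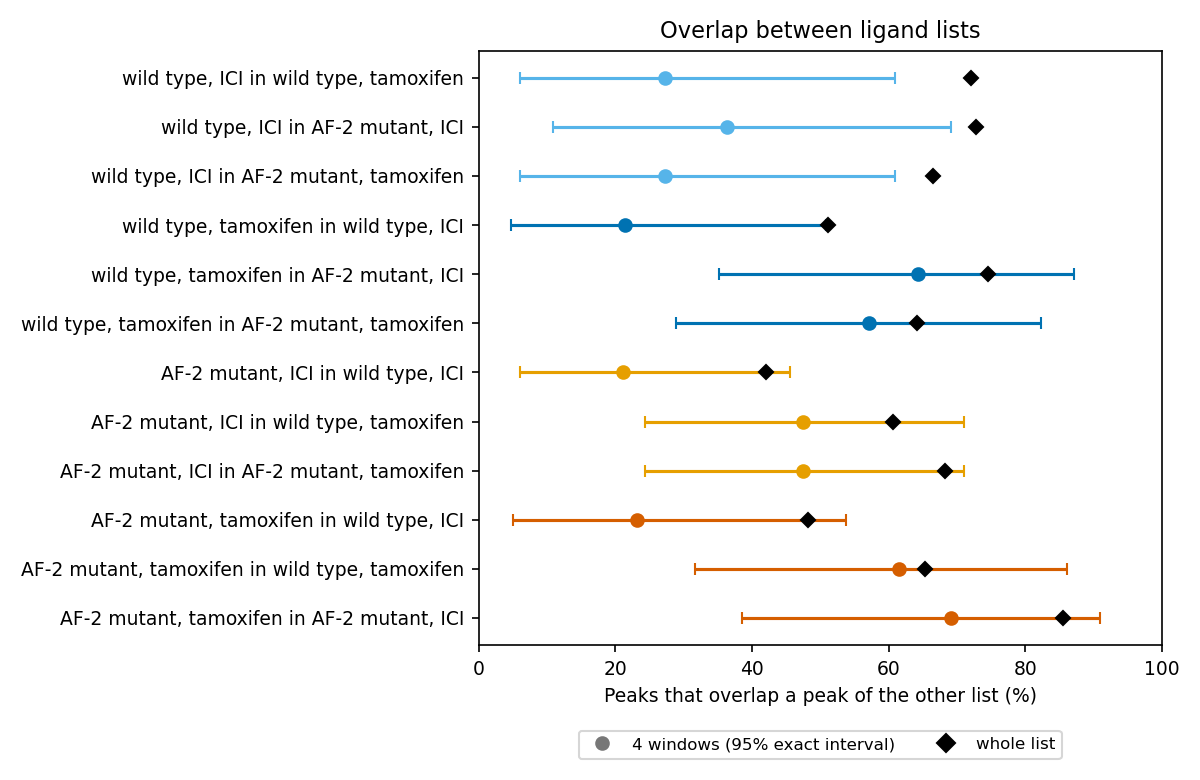
Share in percent of a ligand library's peaks that overlap a peak of another ligand library by at least 1 bp; circles are the peaks in the 4 windows with exact 95% binomial intervals, and black diamonds are the whole lists. The diamonds of the 3 comparisons that start from wild-type ICI lie to the right of the intervals, at 66.5% to 72.8%.

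The ligand lists held a smaller part of the 35 regions than of all regions, whose share follows each value. Wild-type ICI held 11 (31.4%; all regions 40.7%), wild-type tamoxifen 14 (40.0%; 57.3%), mutant ICI 19 (54.3%; 70.3%) and mutant tamoxifen 13 (37.1%; 56.1%). Wild-type vehicle held 4 (11.4%; 5.70%) and mutant vehicle 6 (17.1%; 7.72%). All 4 ligand lists thus stood below their share of all regions and both vehicle lists above it. The share of all regions lay within the counting interval for every list except mutant tamoxifen, whose interval was 21.5 to 55.1.

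The density of ERα sites was set beside windows of the genome that hold at least 1 region. Scaled to 200 kb, Muc1 had 10.7 regions, Lcn2 9.80, Ltf 8.89 and C3 3.56, and the median of the 9582 such windows was 5. Windows without a region do not enter this median. At least as many regions were found in 21.6% of these windows for Muc1, 25.9% for Lcn2, 30.0% for Ltf and 64.0% for C3. The longest stretch without a called region was 123 kb in the C3 window, from 57244719 to 57367709, which spans nearly the whole gene interval. Elsewhere the longest stretch was 58.2 kb at Ltf, 41.6 kb at Muc1 and 37.3 kb at Lcn2. Just outside the windows, the nearest peaks were 0.434 kb beyond the upper edge at C3, 3.48 kb at Ltf, 3.63 kb at Muc1 and 13.2 kb at Lcn2.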

How the data were processed

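Each library was ERα ChIP-seq of pooled uteri. The authors deposited 1 peak list per library, holding positions in mm9 and no score, and each peak was 200 bp wide, tested on all 6 lists. The tools named per the submitters' processing notes are HOMER 4.10.3, Bowtie2 2.1.0, bedtools 2.24.0, Picard and SAMtools. Not given in the sources used here are their roles, the peak threshold and any use of input, which set how many peaks a list holds.

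From the lists, Python 3.11.15 (pandas 2.3.3, scipy 1.17.1) assigned peaks to windows by midpoint and merged peaks overlapping by at least 1 bp into regions. The 65146 regions equalled those of bedtools 2.31.1, and 11 list combinations were recovered without error from 5000 simulated regions. Intervals are exact: Poisson for counts, Clopper-Pearson for shares, conditional binomial for ratios. Coordinates count from 1.

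The members and lists were chosen with earlier results of these data known. Named regions were, per window, up to 8 nearest the gene that lay within 10 kb of the gene interval, held a vehicle peak or were in all 4 ligand lists, plus the nearest region of both ligand lists of 1 genotype alone; other sites were picked after their values were seen. Gene names, order, strand and promoters came from RefSeq GRCm38.p6. Alternatives covered window size, assignment, merging, list length and leaving out a list or, added after seeing the data, a window. Sequence of the mm9 peaks was not analysed here.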

Additional observations from a re-analysis of the deposited data

Results flagged for a closer look

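The order of the ligands around the 4 genes was opposite in wild type and mutant. ICI to tamoxifen peaks stood at a ratio of 0.786 in the former (11 and 14 peaks) and 1.46 in the latter (19 and 13 peaks). The difference between these ratios was not tested, since each comes from 1 library per group, and both counting intervals include 1. The whole lists had the same opposite order, at 0.709 and 1.25. Divided by list length, the ratios around the genes were 1.11 and 1.17, both above 1, so the order is not particular to these genes.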

How the results depend on the processing

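Of 72 values of 11 results recomputed under the alternatives, 68 stayed within the counting interval of the reported value. These intervals are wide and the alternatives reuse the same peaks, so this is a weak check and does not show stability. With the wild-type ICI list left out, the share of regions held by all remaining ligand lists was 23.3% (7 of 30 regions), up from 8.57%, by construction, since 4 regions lacked that list alone. Over the whole series it was then 37.3%. With about 50 kb on each side of the gene, regions with a vehicle peak fell from 22.9% to 4.76% (1 of 21), since 9 of 10 vehicle peaks lay farther out. In those narrower windows the mutant ratio to vehicle rose from 3.17 to 13 for ICI and from 2.17 to 8 for tamoxifen, an alternative chosen after seeing the data; with 0 wild-type vehicle peaks no wild-type ratio could be had. The ratio of ICI to tamoxifen in the wild type was 1.00 without the C3 window and 1.11 when divided by list length, and so did not keep its direction. In the mutant it stayed between 1.11 and 1.70. The mutant to wild-type ratio with tamoxifen ran from 0.833 to 1.00. For ICI it ran from 1.25 without Ltf to 2.43 without Muc1, and was 0.998 when divided by list length. No paired analysis was possible because each group is 1 library. Peak height and depth are unknown, so weak sites near a threshold could not be separated from strong ones.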
